A study of Mus musculus with 2 samples.

Results

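Immediate early genes are transcribed within minutes of a stimulus, from promoters that stand ready and without new protein synthesis, when kinase cascades activate factors already bound there. Many of their products are transcription factors: Fos family and Jun family proteins pair to form AP-1, while Egr1 and Klf4 are zinc finger factors. In skeletal tissue they answer growth factors and mechanical load, and enzymatic digestion, sorting and heat are known to raise them during tissue handling, along with the chaperones of the heat shock response. The genes examined here were the AP-1 genes Fos, Fosb, Jun and Junb, the AP-1 partner and stress factor Atf3, the zinc finger factors Egr1 and Klf4, the immediate early gene Ier2, the MAP kinase phosphatase Dusp1 and the inducible Hsp70 chaperone Hspa1a. They were chosen by symbol, and are 10 of the 32288 features in the count matrices. All 10 were detected in both libraries and passed the low-count filter of the tests.

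The material was labelled as tissue of wild-type C57BL6 mice, 4 weeks of age. Periosteum peeled from femurs and tibias was digested in 0.2% collagenase at 37 °C for 1 h and sorted on CD45, CD31, Ter-119 and the dead cell dye DAPI, and 2 single-cell libraries were made, called library 1 and library 2. The labels do not say how many mice entered each, and both libraries belong to the same single group. The p-values therefore measure the spread between these 2 libraries, which may be technical. That spread was shared over all cell classes tested in a single fit, which treated the sums of a library as independent. No undigested sample was analysed here, so expression present in the tissue and expression gained during digestion, sorting or loading cannot be told apart.

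Library 1 held 9932 barcodes and 100808649 UMIs, and library 2 held 3659 barcodes and 33306452 UMIs. Barcodes with at least 500 genes, at least 500 UMIs and at most 10% mitochondrial UMIs were kept, which left 6276 and 2893 cells with medians of 8164 and 6279 UMIs. The 2 libraries shared 8 barcodes. The feature list holds 3 reporter sequences, and the libraries differed in them: EGFP, a green fluorescent reporter that wild-type mice lack, had 0 UMIs in library 1 but 6837 UMIs in 170 cells of library 2, which goes against the wild-type label there. The red reporter tdTomato, which wild-type mice also lack, had 1482 UMIs in 1027 cells of library 1 and 4627 UMIs in 846 cells of library 2. The wild-type label is therefore in doubt for library 1 as well. A difference in genotype between the libraries and any other difference between them cannot be told apart, and the comparisons of classes were therefore also read in each library alone. Cells were clustered without the members and named from marker genes, and 11 classes had at least 10 cells in both libraries. Although the sort was based on CD45, the largest class was B cell-like, with 2677 and 1338 cells. The stromal classes were small in library 1, with 19 P-SSC-like (periosteal skeletal stem cell-like), 86 osteoblast-like and 27 chondrocyte-like cells, against 298, 168 and 121 in library 2. P-SSC-like cells were named from Pdgfra, Ly6a, Cd34, Clec3b, Pi16, Mfap5, Dpt and Thy1. No separate list of fibroblast markers was used, so the class may hold periosteal fibroblasts that are not stem cells. The other stromal classes were Lepr+ stromal-like, with 82 and 36 cells, and skeletal muscle-like, with 71 and 63. The remaining blood classes were erythroid-like, mature neutrophil-like, neutrophil precursor-like, monocyte/macrophage-like and T/NK cell-like. All 8 P-SSC-like markers were detected in the P-SSC-like class of both libraries. As the class was named from these markers, their detection adds no support for the name. The larger cluster of the class, led by Pi16 and Mfap5, had 5 of them among its 10 leading genes. The other, led by Mfap4, Apod and Eln, had 0.

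The upstream sequences of Fos, Jun, Hspa1a and Dusp1 are printed because Jun and Hspa1a were both high in the same B cell-like cells, described further on, and because each holds 1 of the motifs searched. They are the 250 bases before the transcription start of the RefSeq model, on the strand of the gene, in build GRCm38.p6, and a window was matched for 8 of the 10 members. Capitals mark a motif. Fos lies at chr12:85473640-85473889 (plus strand), Jun at chr4:95052223-95052472 (minus strand), Hspa1a at chr17:34972157-34972406 (minus strand) and Dusp1 at chr17:26508473-26508722 (minus strand). The first 3 windows end at the start of the gene, and that of Dusp1 falls inside the span of a longer Dusp1 gene model in the GENCODE annotation.
Fos: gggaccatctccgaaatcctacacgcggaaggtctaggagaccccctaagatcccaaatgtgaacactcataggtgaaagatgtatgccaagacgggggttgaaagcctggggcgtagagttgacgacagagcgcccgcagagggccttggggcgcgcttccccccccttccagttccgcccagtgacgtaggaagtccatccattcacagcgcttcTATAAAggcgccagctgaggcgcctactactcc
Jun: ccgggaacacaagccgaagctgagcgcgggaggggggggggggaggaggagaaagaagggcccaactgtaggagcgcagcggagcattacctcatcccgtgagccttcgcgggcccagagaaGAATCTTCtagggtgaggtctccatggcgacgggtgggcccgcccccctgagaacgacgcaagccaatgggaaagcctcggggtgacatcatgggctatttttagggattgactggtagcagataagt
Hspa1a: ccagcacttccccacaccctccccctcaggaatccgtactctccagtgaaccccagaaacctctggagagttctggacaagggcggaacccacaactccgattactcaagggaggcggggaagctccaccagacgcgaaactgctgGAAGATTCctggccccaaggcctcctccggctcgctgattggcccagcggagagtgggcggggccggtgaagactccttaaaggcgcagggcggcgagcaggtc
Dusp1: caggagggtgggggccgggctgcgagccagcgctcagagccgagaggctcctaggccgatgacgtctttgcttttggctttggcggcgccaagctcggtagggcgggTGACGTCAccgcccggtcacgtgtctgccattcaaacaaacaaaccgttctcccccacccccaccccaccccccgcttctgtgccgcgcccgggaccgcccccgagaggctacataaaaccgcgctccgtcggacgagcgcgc

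In all, 5 motifs were searched on both strands in the 8 windows: the heat shock element core GAANNTTC, the cAMP response element TGACGTCA, the AP-1 site TGANTCA, the TATA box TATAAA and the CArG box, the site of serum response factor. The heat shock element core stood at -104 to -97 of Hspa1a and at -128 to -121 of Jun, and 6.69% of 32851 mouse promoter windows of the same length held it. TGACGTCA stood at -143 to -136 of Dusp1 (1.55% of windows) and TATAAA at -33 to -28 of Fos (12.4% of windows). The AP-1 site (6.75% of windows) and the CArG box (1.47%) were in none of the 8 windows. Egr1 and Ier2 had no matched window, and sites more than 250 bases upstream were not searched for any member. Absence from the windows therefore does not show that a gene lacks such a site. No matches overlapped. A match is a string of letters and does not show that a factor was bound.

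In the annotation of build GRCm38 all 10 members are protein-coding genes. They lie on chromosomes 12 (Fos), 7 (Fosb), 4 (Jun and Klf4), 8 (Junb and Ier2), 18 (Egr1), 1 (Atf3) and 17 (Hspa1a and Dusp1). Hspa1a, at chr17:34969190-34972156, has a near-identical neighbor on the same strand, Hspa1b, at chr17:34956436-34959238, so the split of reads between that pair is uncertain and their values are given together where they matter.

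With UMIs pooled over each class, the members were highest in chondrocyte-like and osteoblast-like cells and lowest in skeletal muscle-like cells. Levels are UMIs per 1000000 UMIs of the class in that library (CPM), and each value is 1 library. Summed over the 10 members, chondrocyte-like cells held 11512 CPM in library 1 and 13108 in library 2, and osteoblast-like cells 6001 and 6149. The next classes were close to each other and changed order between libraries: monocyte/macrophage-like cells held 3102 and 4264 CPM, Lepr+ stromal-like cells 2845 and 2866, mature neutrophil-like cells 1961 and 3608, T/NK cell-like cells 1809 and 2810, and P-SSC-like cells 1785 and 3232. The Lepr+ stromal-like level came from a part of its cells, with Fos found in 11 of 82 cells in library 1 and 13 of 36 in library 2. The median cell of that class held 119 and 769 CPM of the members, against 2669 and 2805 in monocyte/macrophage-like cells. Lower down came neutrophil precursor-like cells (727 and 828 CPM), B cell-like cells (683 and 2058) and erythroid-like cells (669 and 1111). Skeletal muscle-like cells held 313 and 189 CPM, with a median of 1968 and 2552 UMIs a cell. Among the classes as named, the gap between chondrocyte-like and osteoblast-like cells was larger than the difference between libraries in either. So was that between osteoblast-like cells and every class below them. These gaps are in pooled UMIs. The median osteoblast-like cell held 2102 and 2774 CPM, below the median monocyte/macrophage-like cell in both libraries. Median mature neutrophil-like cells held 1481 and 2770 CPM, and median T/NK cell-like cells 1584 and 2679. An unnamed cluster of 68 and 73 cells, described further on, best matched chondrocyte-like markers but held far less of the members. A naming rule set after the clusters were seen left it out, and looser names put it in that class (95 and 194 cells). The gap between chondrocyte-like and osteoblast-like cells was not read under the looser names.

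**Figure D1:**
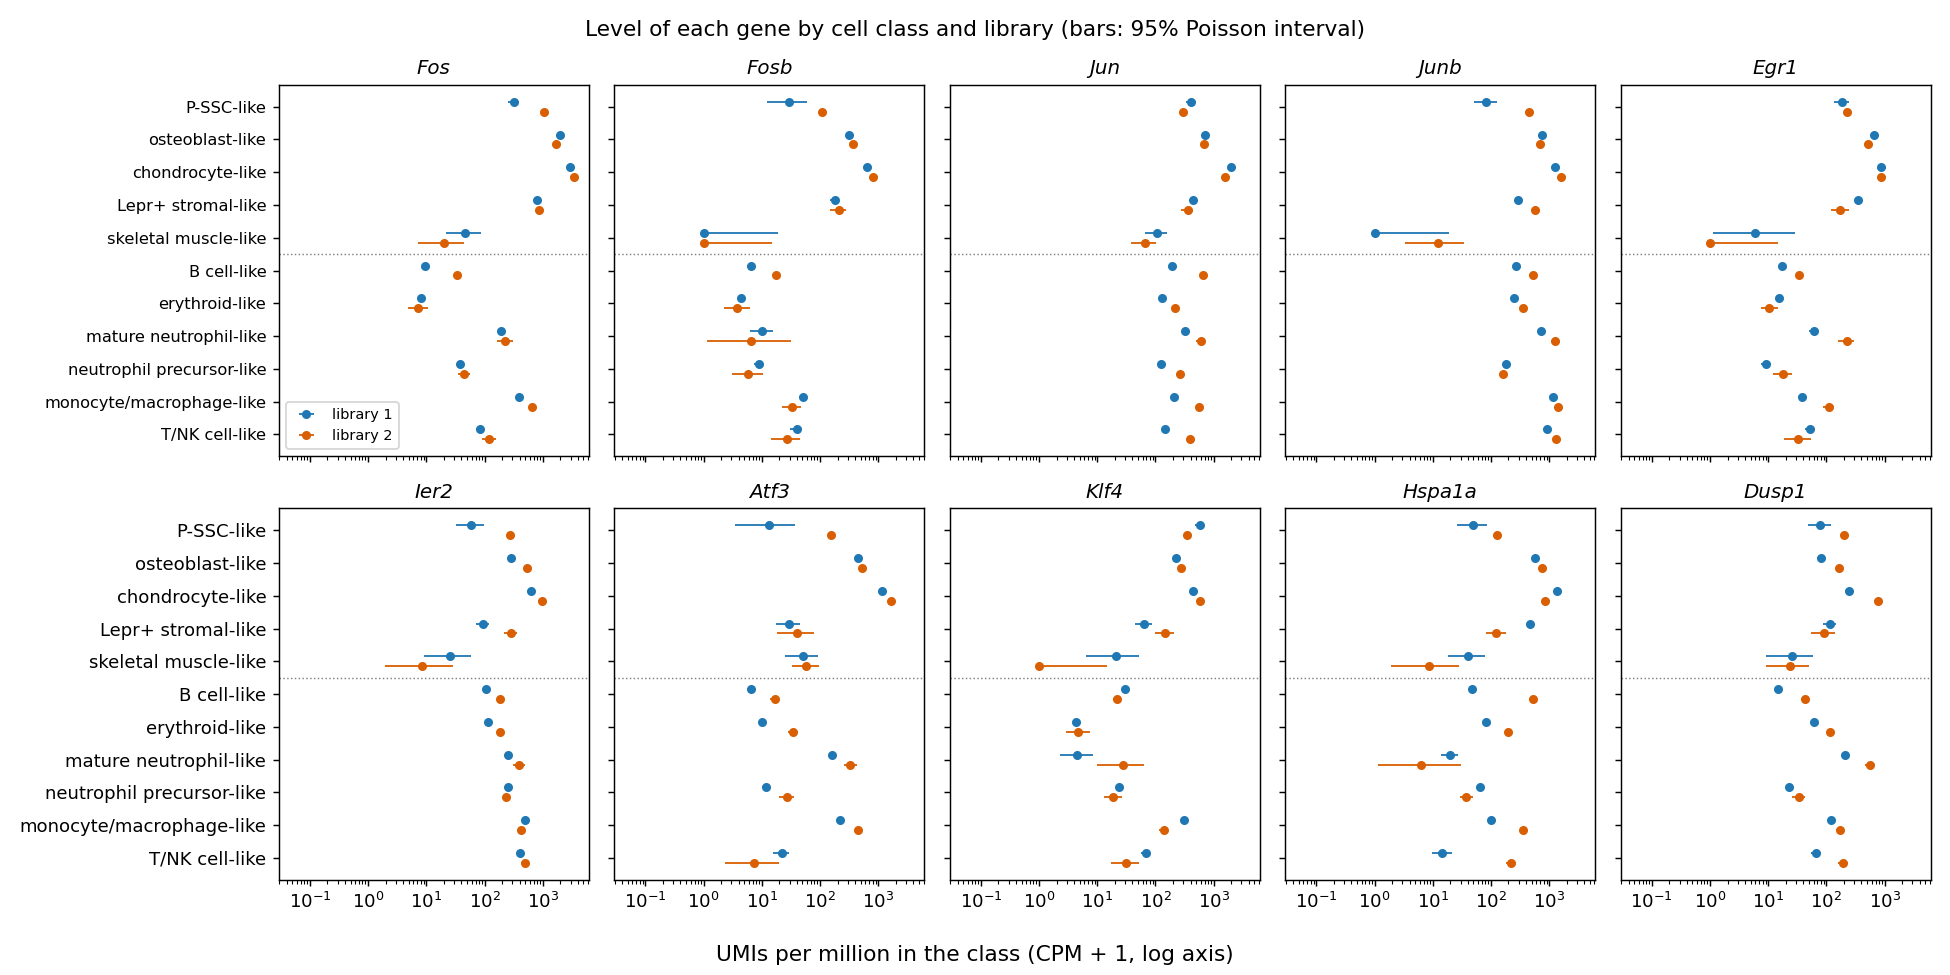
Level of each member in each cell class, in CPM plus 1 on a log axis, with 1 point per library and bars for the 95% Poisson interval, which covers counting error only. A dotted line parts the stromal classes above from the blood classes below, and Fos runs from 2937 and 3454 CPM in chondrocyte-like cells to 7.0 and 6.1 CPM in erythroid-like cells.

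Single members did not all follow that order. Fos, an AP-1 subunit, stood at 1953 and 1655 CPM in osteoblast-like cells and 314 and 1061 in P-SSC-like cells, against 8.60 and 32.2 in B cell-like cells. Junb, another AP-1 subunit, was higher in T/NK cell-like cells (916 and 1299 CPM) and monocyte/macrophage-like cells (1168 and 1395) than in osteoblast-like cells (765 and 695) in each library, and at 731 and 1239 CPM in mature neutrophil-like cells. Klf4, a factor of stem cells and of monocyte differentiation, was the member for which P-SSC-like cells stood beside chondrocyte-like cells, at 575 and 341 CPM against 437 and 574. In mature neutrophil-like cells Hspa1a was low, with 33 UMIs in 346 cells of library 1, 19 of them in 1 cell. In library 2 it was near the floor, with 1 UMI in 42 cells.

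Stromal classes were compared with blood classes as the mean of 5 stromal classes against the mean of 6 blood classes, by edgeR's quasi-likelihood test on UMI sums per library and class. Of the 10 members, 4 were higher in the stromal classes and 2 lower at an adjusted p of 0.05, where 19.1% of the 12999 genes tested were higher and 30.6% lower. Fos was higher by 3.18 ± 0.27 on the log2 scale (± SE, adjusted p = 1.2e-08), Klf4 by 2.36 ± 0.38 (adjusted p = 3.07e-05), Egr1 by 1.94 ± 0.60 (adjusted p = 0.0105) and Atf3 by 1.83 ± 0.35 (adjusted p = 0.000235). The 2 lower members were Junb, at -1.36 ± 0.31 (adjusted p = 0.000956), and Ier2, at -0.76 ± 0.28 (adjusted p = 0.0309). Jun, Hspa1a and Dusp1 did not pass, with log2 differences of 0.36, 0.97 and 0.26. With DESeq2-type size factors in place of TMM, 6 members were higher and 1 lower, and Ier2 lost its call there and in 5 other settings. Egr1 lost it without integration (adjusted p = 0.0764). From library 1 alone Fos was at 3.57, Egr1 at 2.98 and Junb at -1.69, and from library 2 alone at 3.13, 1.66 and -0.96. For Fosb no fold could be estimated, because skeletal muscle-like cells had 0 UMIs of it in both libraries.

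That comparison turned on the skeletal muscle-like class, in which most members were at or near 0. Its medians of 737 and 856 genes and of 0.12% and 0.06% mitochondrial UMIs were the lowest of the classes tested. Whether these barcodes are whole cells was not examined. A comparison without this class was added after the values were seen. In it 8 members were higher in the stromal classes and 0 lower, where 34.3% of 13219 genes were higher and 24.6% lower. Fos was then higher by 4.34 ± 0.27 (adjusted p = 4.45e-10), Fosb by 4.25 ± 0.27 (adjusted p = 3.66e-10), Egr1 by 3.51 ± 0.25 (adjusted p = 2.37e-09) and Klf4 by 3.39 ± 0.25 (adjusted p = 3.24e-09). The other 4 were Atf3 at 2.30 ± 0.38, Hspa1a at 1.84 ± 0.48, Jun at 1.01 ± 0.26 and Dusp1 at 0.91 ± 0.31. Junb (0.01 ± 0.26, adjusted p = 1.00) and Ier2 (0.18 ± 0.28, adjusted p = 0.63) lost their call and their sign. The median over the members was 1.26 with the skeletal muscle-like class, against -0.17 over all genes, and 2.07 without it, against 0.18.

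Among stromal classes, P-SSC-like cells had lower levels of most members than osteoblast-like cells, which make bone matrix. In P-SSC-like cells Fosb was at 28.5 and 107 CPM in libraries 1 and 2, against 308 and 364 in osteoblast-like cells, and Atf3 was at 12.2 and 155 CPM against 453 and 530. The libraries of the 2 classes did not overlap for either gene, but the share of all genes without overlap was not computed. Of the 10 members 6 were lower in P-SSC-like cells and 0 higher, where 6.83% of genes were lower and 9.58% higher. The 6 were Hspa1a (-3.36 ± 1.12, adjusted p = 0.046), Atf3 (-2.88 ± 0.81, adjusted p = 0.0186), Fosb (-2.70 ± 0.55, adjusted p = 0.00241), Egr1 (-2.07 ± 0.59, adjusted p = 0.0199), Junb (-1.90 ± 0.63, adjusted p = 0.046) and Fos (-1.88 ± 0.57, adjusted p = 0.029). Klf4 stood at 0.23 ± 0.60 (adjusted p = 0.868) and Dusp1 at -0.27 ± 0.65 (adjusted p = 0.859), the wide errors leaving room for a difference either way. Jun (-1.62, adjusted p = 0.0661) and Ier2 (-1.71, adjusted p = 0.0657) passed when the library was a block in the fit (-1.65, adjusted p = 0.0173, and -1.80, adjusted p = 0.00873). The difference rested in part on the 19 P-SSC-like cells of library 1: from library 2 alone, Fos differed by -0.64, Junb by -0.64 and Atf3 by -1.78 on the log2 scale, with no test. Junb lost its call in 5 alternative settings (adjusted p from 0.0553 to 0.111) and Fos in 3 (0.0535 to 0.121), and Hspa1a lost it with DESeq2-type size factors (0.0534).

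Against chondrocyte-like cells, named from cartilage matrix genes such as Col2a1 and Acan, the difference took in 9 of the 10 members. Jun was at 408 and 295 CPM in P-SSC-like cells and at 2008 and 1582 in chondrocyte-like cells. Ier2 was at 57.0 and 276 CPM against 630 and 982. For both genes the classes were apart in each library, and the share of all genes so placed was not computed. The 9 members were lower in P-SSC-like cells and 0 were higher, where 9.19% of genes were lower and 11.3% higher. The differences ran from -4.26 ± 0.85 for Atf3 (adjusted p = 0.0016) through -3.95 ± 1.14 for Hspa1a (adjusted p = 0.0194), -3.69 ± 0.58 for Fosb (adjusted p = 0.000229), -2.84 ± 0.61 for Jun (adjusted p = 0.00255) and -2.56 ± 0.58 for Fos (adjusted p = 0.00403) to -2.20 ± 0.68 for Dusp1 (adjusted p = 0.0279). Klf4 was again the exception, at -0.66 ± 0.60 (adjusted p = 0.498). Library 2 alone gave -3.41 for Atf3 and -1.70 for Fos, and library 1 alone -6.33 and -3.22. Dusp1 lost its call with called doublets removed (adjusted p = 0.0539). The median over the members was -2.65, against 0 over all genes, and in the comparison with osteoblast-like cells it was -1.89, against -0.02.

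In the blood classes, monocyte/macrophage-like cells had more Fos, Fosb, Atf3, Klf4, Dusp1 and Ier2 than B cell-like cells. Fos was at 394 and 642 CPM in monocyte/macrophage-like cells, far from the 8.60 and 32.2 CPM of B cell-like cells, and Klf4 was at 304 and 138 CPM against 29.5 and 20.8. Of the 10 members 6 were higher and 0 lower, where 13.2% of genes were higher and 6.42% lower. These were Atf3 (5.08 ± 0.89, adjusted p = 0.000376), Fos (4.78 ± 0.65, adjusted p = 2.93e-05), Klf4 (3.22 ± 0.65, adjusted p = 0.00119), Dusp1 (2.51 ± 0.69, adjusted p = 0.0132), Fosb (2.02 ± 0.55, adjusted p = 0.0126) and Ier2 (1.78 ± 0.61, adjusted p = 0.0473). Fosb depended on the library, at 0.97 from library 2 alone and 3.17 from library 1 alone, and lost its call without integration (adjusted p = 0.102). Fos was at 4.32 and 5.51 in the same order, and Ier2 lost its call in 4 settings (adjusted p from 0.0537 to 0.165). Junb (1.79, adjusted p = 0.0518) and Egr1 (1.65, adjusted p = 0.0551) passed with the library as a block (1.86, adjusted p = 0.00526, and 1.62, adjusted p = 0.0243). Jun (-0.05 ± 0.56) and Hspa1a (-0.21 ± 1.01) did not pass. The median was 1.91 over the members and -0.11 over all genes.

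In CPM, mature neutrophil-like cells also stood above neutrophil precursor-like cells for part of the members. A mature neutrophil-like cell held far fewer UMIs (median 4418 in library 1 and 3564 in library 2) than a precursor-like cell (29115 and 34956). The values below are relative to all UMIs of a class and do not show more transcripts per cell. Junb was found in 84.7% and 88.1% of mature neutrophil-like cells and in 85.5% and 66.7% of precursor-like cells. Dusp1, which dephosphorylates and so switches off MAP kinases, was at 205 and 563 CPM against 21.6 and 32.2, and Junb was at 731 and 1239 CPM against 183 and 159. Neither gene overlapped between the classes, but the share of all genes without overlap was not computed. Of the 10 members 5 were higher and 0 lower, where 13.4% of genes were higher and 21.4% lower: Dusp1 by 4.04 ± 0.74 (adjusted p = 0.000392), Atf3 by 3.99 ± 0.87 (adjusted p = 0.00156), Egr1 by 3.68 ± 0.66 (adjusted p = 0.000262), Junb by 2.78 ± 0.65 (adjusted p = 0.00278) and Fos by 2.67 ± 0.60 (adjusted p = 0.00199). From library 1 alone Dusp1 was at 3.25, Egr1 at 2.88 and Junb at 2.00, and from library 2 alone at 4.12, 3.72 and 2.96. Without integration 3 members passed, and Fos (2.26, adjusted p = 0.0847) and Junb (1.37, adjusted p = 0.225) did not. Jun (1.50, adjusted p = 0.0528) passed with the library as a block (1.57, adjusted p = 0.0131). Hspa1a, at -1.34 ± 1.17 (adjusted p = 0.419), did not pass and pointed the other way. The median was 2.09 over the members and -0.44 over all genes.

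**Figure D2:**
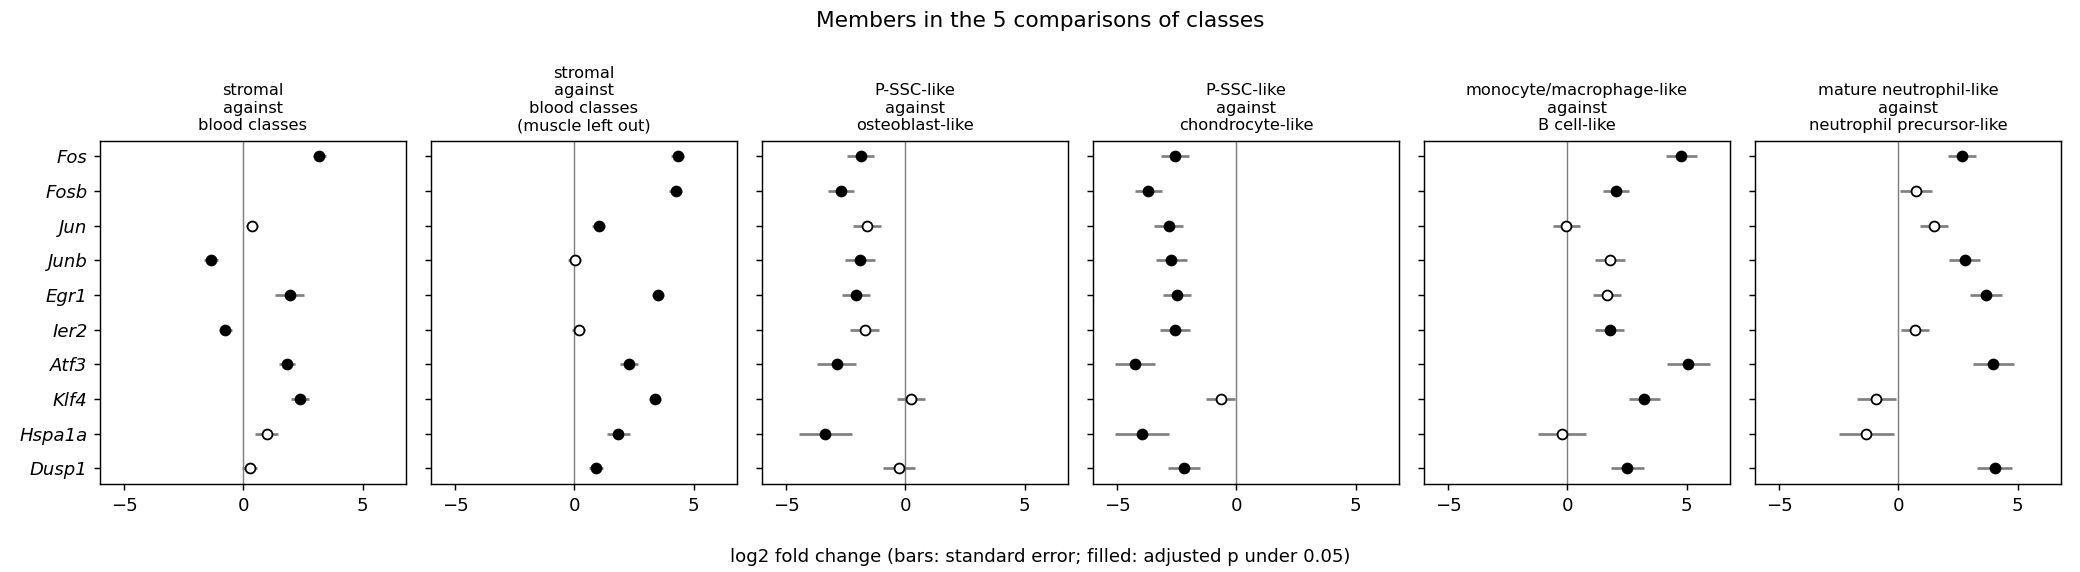
Log2 difference of each member in the class comparisons, including stromal against blood with and without skeletal muscle-like cells, with bars of 1 SE from edgeR and filled points for an adjusted p under 0.05. Every member lies below 0 in P-SSC-like against chondrocyte-like cells, and all but Klf4 pass there. Fosb has no point in stromal against blood cells with the skeletal muscle-like class.

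Wider gene lists of the same pathways were read in the same fit. In P-SSC-like against chondrocyte-like cells, other immediate early and heat shock genes were called only in the lower direction. Of all genes tested there, 9.19% were lower and 11.3% higher, and no list was tested against these shares. Of 18 other immediate early genes tested 7 were lower and 0 higher (median -1.79), including Ccn1, a secreted matrix protein, at -4.44 ± 0.85 (adjusted p = 0.000801) and the antiproliferative gene Btg2 at -4.00 ± 0.51 (adjusted p = 2.95e-05). Of 12 heat shock genes 7 were lower and 0 higher (median -1.73), led by the Hsp40 co-chaperone Dnajb1 at -4.39 ± 0.61 (adjusted p = 6.76e-05), with Hspa1b at -3.29 ± 1.10 (adjusted p = 0.04). Of the 9 other AP-1 genes 5 were lower (median -1.74), of 8 other MAP kinase phosphatases 2 (median -1.12) and of 10 integrated stress and growth arrest genes 3 (median -1.49), with 0 higher in each. Gadd45b, which is induced by stress and growth arrest, was at -3.25 ± 0.64 (adjusted p = 0.00139). The 11 NF-kappa B targets and chemokines had 2 higher and 0 lower (median 0.33).

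Against osteoblast-like cells fewer genes of these lists passed. Among all genes 6.83% were lower and 9.58% higher. Counts of 1 or 2 genes in a list were not tested against those shares, and that of the heat shock genes is near them. Of the other immediate early genes 4 were lower and 1 higher (median -1.42), among them Ccn1 at -3.45 ± 0.81 (adjusted p = 0.00511), the cytokine signaling inhibitor Socs3 at -2.47 ± 0.56 (adjusted p = 0.00424) and Btg2 at -2.36 ± 0.48 (adjusted p = 0.00202). Of the heat shock genes 1, Dnajb1, was lower (-1.66 ± 0.55, adjusted p = 0.0459) and 0 were higher (median -0.56). The other AP-1 genes had 2 lower (median -0.83) and the stress and growth arrest genes 2 lower (median -0.62), with 0 higher in each. The phosphatases had 0 called (median -0.75). The NF-kappa B list had 2 higher and 0 lower (median -0.14).

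In monocyte/macrophage-like against B cell-like cells the NF-kappa B list stood out by count, with 9 of 11 genes higher and 0 lower (median 6.26). The other immediate early genes had 5 higher and 0 lower (median 0.83), including Ier3, an inhibitor of apoptosis, at 5.66 ± 1.10. The other AP-1 genes went both ways, with 3 higher and 1 lower (median 1.94), Fosl2 at 5.65 ± 0.48 (adjusted p = 3.43e-07) and Jund at -2.01 ± 0.40 (adjusted p = 0.0011). The phosphatases had 0 higher and 3 lower (median -1.62), opposite to Dusp1. The heat shock genes had 1 higher and 0 lower (median -0.45), and the stress and growth arrest genes 3 higher and 0 lower (median 0.78). As a background, 13.2% of all genes were higher and 6.42% lower. The heat shock count is not above that share, and no list was tested against it.

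In mature neutrophil-like against neutrophil precursor-like cells the heat shock genes went opposite to the other lists. These differences are again relative to all UMIs of a class and not per cell. Here 13.4% of all genes were higher and 21.4% lower, and no list was tested against these shares. Of 12 heat shock genes 7 were lower and 0 higher (median -1.87), among them the mitochondrial chaperones Hspd1 at -2.84 ± 0.46 and Hspe1 at -2.63 ± 0.45. Of 18 other immediate early genes 11 were higher and 1 lower (median 2.88), with Ier5 at 3.60 ± 0.63 and Btg2 at 3.48 ± 0.49. The stress and growth arrest genes had 7 of 10 higher and 0 lower (median 2.69), including the stress factor Ddit3 at 3.30 ± 0.57. The other AP-1 genes had 5 higher (median 1.16, Mafk at 3.86 ± 0.55 and Fosl2 at 3.51 ± 0.44), the NF-kappa B list 5 (median 1.37) and the phosphatases 3 (median 1.87, Dusp6 at 4.64 ± 0.54, adjusted p = 1.08e-05), with 0 lower in each.

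Between stromal and blood classes the lists were mixed. Over all genes 19.1% were higher and 30.6% lower with the skeletal muscle-like class, and 34.3% and 24.6% without it. Several list counts lie near these shares, and none was tested against them. With the skeletal muscle-like class the other immediate early genes had 5 higher and 4 lower (median 0.16), and without it 9 higher and 2 lower (median 1.34). Ccn1 was higher by 7.51 ± 1.13 and Socs3 by 2.45 ± 0.61 with that class in. For the remaining lists, again with it in, higher and lower counts were 2 and 6 for heat shock genes (median -0.30), 0 and 4 for other AP-1 genes (median -0.67), 1 and 4 for phosphatases (median -0.48), 1 and 4 for the NF-kappa B list (median -0.97) and 1 and 5 for stress and growth arrest genes (median -0.72). Without it they were 5 and 6, 2 and 4, 1 and 4, 2 and 4, and 4 and 3, in the same order.

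The 5 genes outside the members whose log2 CPM over the 22 class and library sums, centered within library, was most like the mean of the members were Arf4 (Pearson's r = 0.916), Copb1 (0.898), Atp2b1 (0.887), Slc26a2 (0.887) and Egr2 (0.876), out of 12999 genes. The 22 points come from 11 classes of the same 2 libraries and differ in depth, so r is a description.

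Within a class the members varied widely from cell to cell. The summed level ran from a 10th percentile of 99.7 CPM to a 90th of 15547 around a median of 2102 in osteoblast-like cells of library 1, and from 115 to 20069 around 2774 in library 2. In chondrocyte-like cells it ran from 102 to 30331 around 5101, and from 1107 to 30103 around 9207. P-SSC-like cells had medians of 1352 and 1421 CPM, nearly alike in the 2 libraries, with 90th percentiles of 2975 and 8694. The 2 P-SSC-like clusters were unequally filled, with 16 and 3 cells in library 1 and 178 and 120 in library 2. The median cell held UMIs of 9 and 9 of the 10 members in the chondrocyte-like class, 8 and 7 in the osteoblast-like class, 4 and 5 in the P-SSC-like class and 2 and 2 in the B cell-like class.

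**Figure D3:**
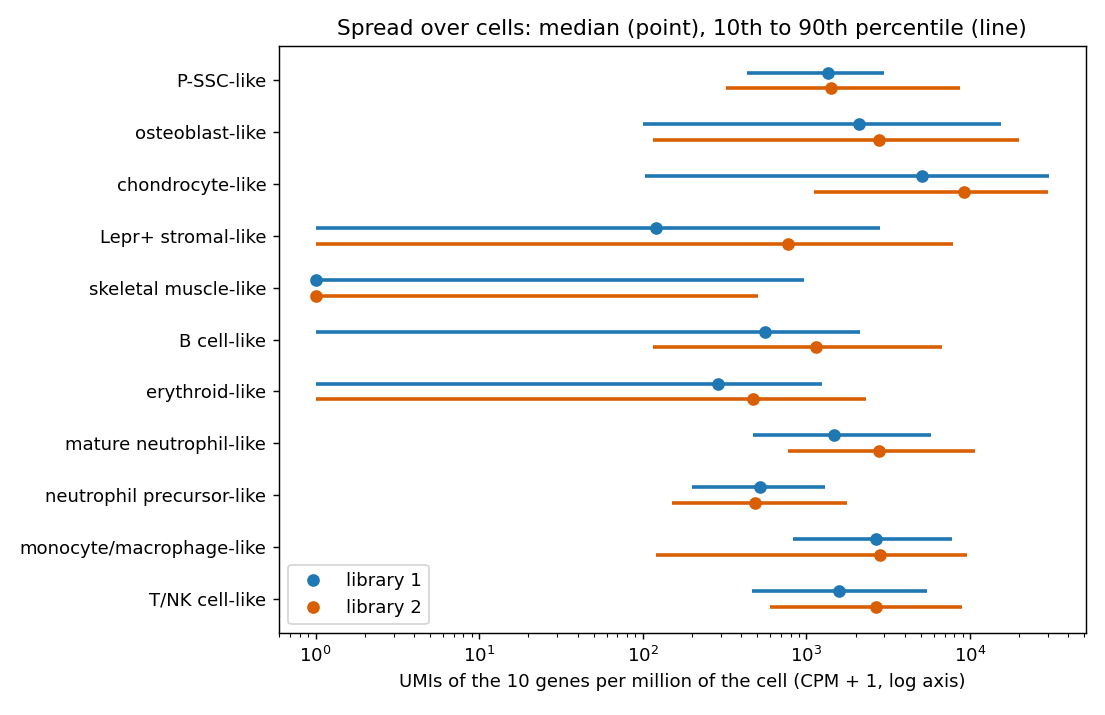
Summed level of the 10 members in single cells of each class and library, in CPM of the cell plus 1 on a log axis, with the median as a point and a line from the 10th to the 90th percentile. Osteoblast-like cells of library 1 span 99.7 to 15547 CPM, and the median of skeletal muscle-like cells is 0 in both libraries.

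Stromal clusters left without a name spread further than the named classes. A cluster of 68 and 73 cells rich in Spp1, Col10a1 and Mgp transcripts, genes of hypertrophic cartilage and bone matrix, held 49.0 and 356 CPM of the members, and in library 2 EGFP was found in 38 of its 73 cells. A smaller one of 17 and 47 cells, in which Spp1 and Col10a1 were again the top genes by UMIs, held 12422 and 17658 CPM. The members and the genes of the lists had no part in the clustering, and no test was made between clusters.

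Over all classes together, members were more often higher in library 2 than lower. Over 109 pairs of a member and a class, the ratio of library 2 to library 1 was above 1 with an exact interval excluding 1 in 62 pairs, below 1 in 19, and had an interval including 1 in 28. In 8 classes 6 to 9 of the 10 members were higher in library 2, but it was 4 in neutrophil precursor-like cells, 3 in Lepr+ stromal-like cells and 0 of 9 pairs in skeletal muscle-like cells. These intervals cover counting error only, and with 1 library a side the difference has no replicate check. The share of all genes whose interval excluded 1 was not computed, so these counts cannot be set against a background. Nor do the intervals show how far a single cell carries a ratio. In monocyte/macrophage-like cells of library 2, 1 cell held 349 of the 492 Jun UMIs. The top cell for Atf3 held 212 of 394 UMIs there, and the top cell for Egr1 held 64 of 95. Ratios without the top cell were computed for Hspa1a only. A ratio of at least 2-fold upward was seen in 34 of 105 pairs (32.4%) and of at least 2-fold downward in 8 (7.62%), where 7.91% of all 101197 pairs of a gene and a class were up and 12.4% down. By the interval, again without a background, Dusp1 was higher in library 2 in 9 classes and lower in 0. Atf3 and Ier2 were higher in 8 and lower in 1 each, and Junb was higher in 8 and lower in 2. Klf4 was higher in 4 and lower in 4. Over all kept cells the members summed to 1137 CPM in library 1 and 4545 in library 2, a contrast that includes the different mix of classes.

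**Figure D4:**
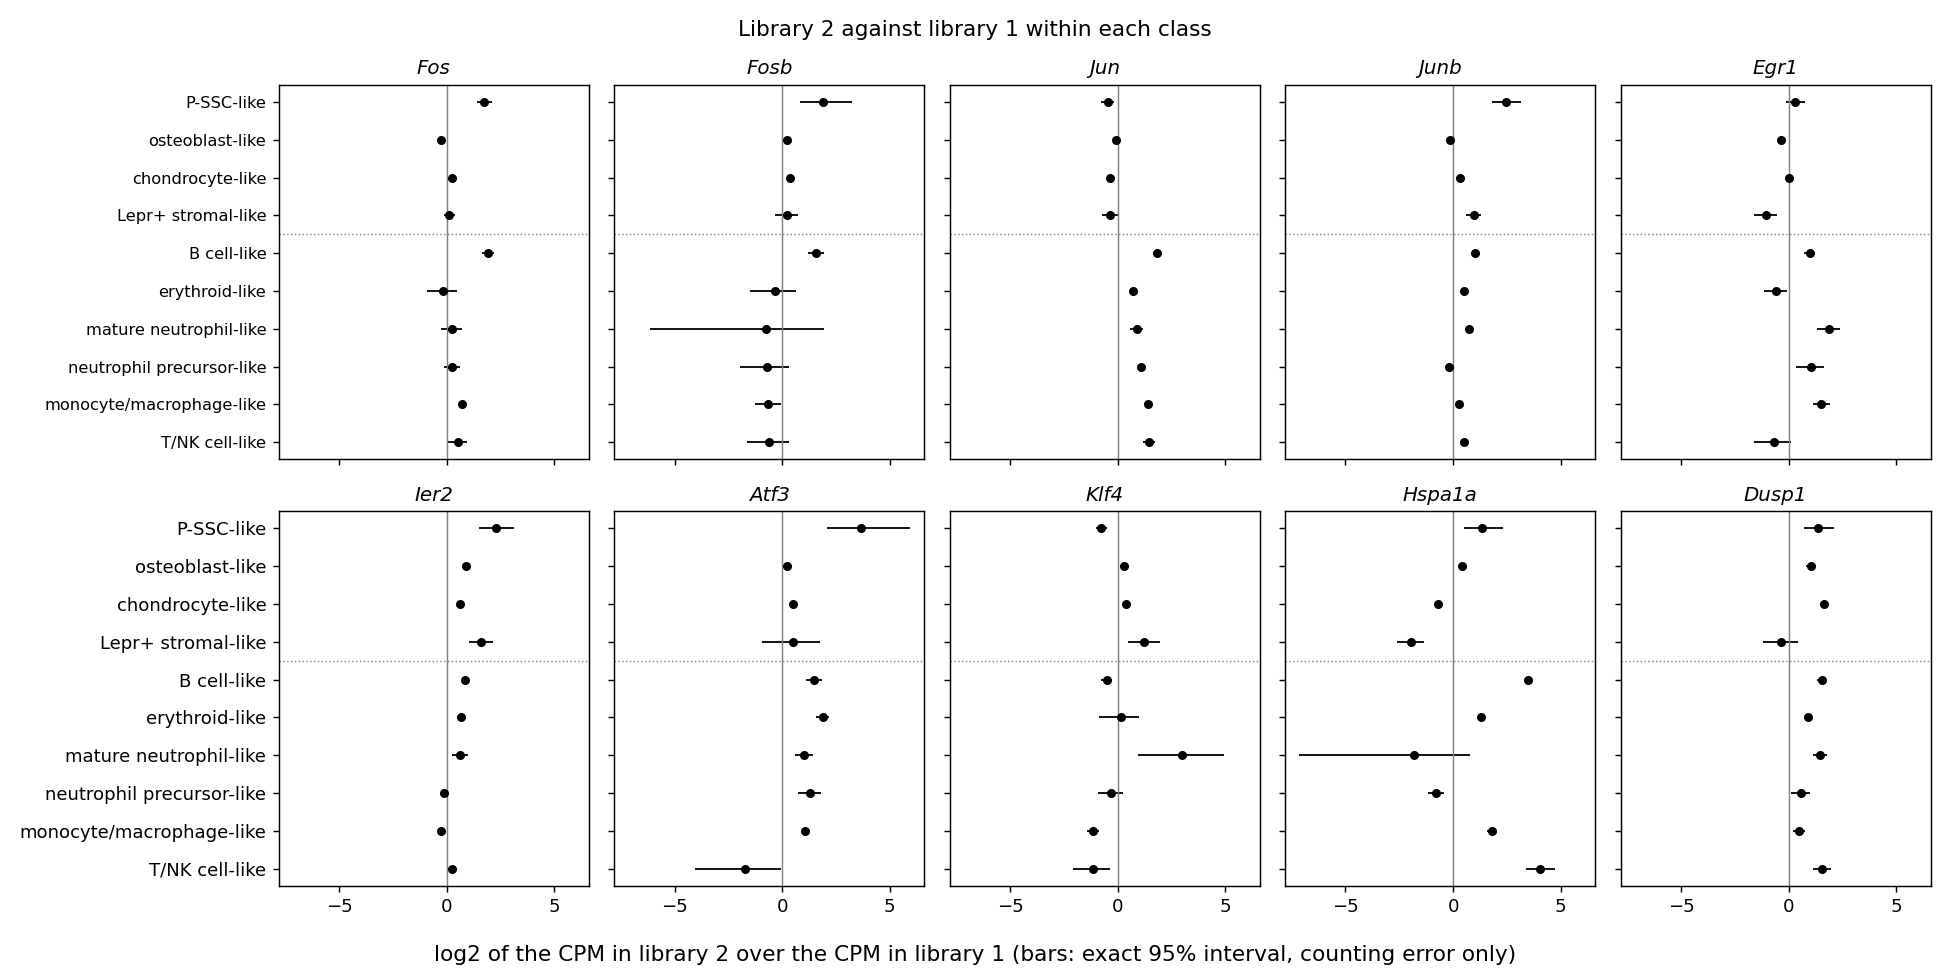
Log2 ratio of library 2 to library 1 for each member in 10 classes, with exact 95% intervals that cover counting error only. Skeletal muscle-like cells are not drawn, and the B cell-like class shows 9 of 10 members above 0 and Klf4 below.

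B cell-like and P-SSC-like cells had the most members past 2-fold of the 11 classes. In B cell-like cells 7 of 10 members were at least 2-fold higher in library 2, against 5.95% of all genes in that class, and the median log2 ratio was 1.53 for the members and 0.03 for all genes. In P-SSC-like cells it was also 7 of 10, against 9.07%, with medians of 1.54 and -0.35. The library 1 side of that class was 19 cells, with 3 UMIs of Atf3 and 7 of Fosb, and its clusters were unequally filled. The summed level of its median cell was nearly alike in the libraries, at 1352 and 1421 CPM. In osteoblast-like cells 1 of 10 members was at least 2-fold higher, against 5.77% of all genes in that class. By the interval 6 members were higher and 3 lower, with ratios from 0.774 for Egr1 to 1.88 for Ier2 and 2.06 for Dusp1. In chondrocyte-like cells Dusp1 was at 242 and 754 CPM, a ratio of 3.12, while Hspa1a had a ratio of 0.62. A single cell held 486 of the 1221 Hspa1a UMIs of that class in library 1, and without the top cell of each library the levels were 838 and 773 CPM, a ratio of 0.92 (exact interval 0.85 to 1.00). Median mitochondrial shares were lower in library 2 in every class tested but the Lepr+ stromal-like, at 3.18% and 3.39% (4.89% and 1.87% for the B cell-like class, 3.28% and 1.95% for the osteoblast-like, 3.35% and 1.59% for the P-SSC-like), and their part in these ratios was not tested. P-SSC-like markers summed to 5.55 CPM in B cell-like cells of library 1 and 21.1 in library 2, with Dpt at 0 in library 1, while chondrocyte-like markers summed to 23.3 and 32.5.

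The largest of these differences in B cell-like cells was in Hspa1a, at 46.0 CPM in library 1 and 518 in library 2, a ratio of 11.2. Without the top cell of each library it was 11.5. Hspa1b was at 41.9 and 534 CPM (ratio 12.7, exact interval 11.8 to 13.7), and Jun at 190 and 667 (ratio 3.51). T/NK cell-like cells showed the same direction, with Hspa1a at 13.6 and 222 CPM and Hspa1b at 7.37 and 243, although the Hspa1a level of library 2 came from 104 UMIs in 6 of 37 cells. Mature neutrophil-like cells did not, with Hspa1b at 25.6 and 10.8 CPM. The direction was not particular to B and T/NK cell-like cells. Hspa1a was at 100 and 351 CPM in monocyte/macrophage-like cells and at 80.1 and 196 in erythroid-like cells. In neutrophil precursor-like cells it was at 63.8 and 37.0 CPM. By the interval, without a background, it was higher in library 2 in 6 classes and lower in 4. Without the top cell of each library the 6 stayed higher. Of the 4, the interval then included 1 in chondrocyte-like and Lepr+ stromal-like cells. The Lepr+ stromal-like levels became 111 and 89.0 CPM, a ratio of 0.80 (exact interval 0.43 to 1.40). Neutrophil precursor-like and skeletal muscle-like cells stayed lower, the latter with only 8 and 2 UMIs before the top cells were left out. Most other heat shock genes of B cell-like cells differed less: the ratio was 1.05 for Hspa8, 1.32 for Dnajb1, 1.39 for Hsph1 and 0.85 for Hsp90ab1, and 2 of the 12 list genes were at least 2-fold higher, Hspa1b and the small heat shock gene Hspb1 (1.15 and 14.1 CPM). The Hspa1a ratio was above 1 in all 6 B cell-like clusters, from 2.96 to 19.9. It reached 1644 CPM in library 2, from 82.5, in a cluster of 195 and 207 cells led by Vpreb1, Igll1 and Dntt, genes of early B cell development.

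Hspa1a was held by few B cell-like cells. A UMI of it was found in 4.74% of these cells in library 1 and in 17.7% in library 2, and with each cell thinned to 1000 UMIs in 2.09% and 12.5%. In mature neutrophil-like cells the shares were 2.89% and 2.38%, with median depths of 4418 and 3564 UMIs against 3852 and 4007.5 in B cell-like cells. The 10% of B cell-like cells with the most Hspa1a held 100% and 93.5% of its UMIs. In library 1 this follows from detection in under 10% of cells, and Fos, Fosb and Egr1 also had 100% there. Fos had 96.3% in library 2. For Junb, found in 62.2% and 70.0% of cells, the shares were 46.6% and 45.3%. Such shares depend on how many cells hold the gene and are not particular to Hspa1a. Cells with at least 10 Hspa1a UMIs, a threshold set after the values were seen, numbered 35 of 2677 and 124 of 1338.

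Cells picked in this way for Hspa1a also held more Jun. In library 2 Jun was at 2254 CPM (exact interval 2159 to 2352) in the 124 B cell-like cells with at least 10 Hspa1a UMIs and at 367 in the 1101 cells with none. In library 1 it was at 729 CPM in 35 cells and at 173 in 2550. Hspa1b, the near-identical neighbor of Hspa1a from which the split of reads is uncertain, was at 3498 against 58.8 CPM in library 2. The Hsp70 and Hsp40 partners followed, with Hsph1 at 262 against 35.7 CPM and Dnajb1 at 260 against 57.1, and Ier2 was at 451 against 130. Fos was at 74.4 against 19.4 CPM, and at 31.1 against 7.78 in library 1. Egr1 differed between libraries, at 45.4 CPM (27.3 to 70.9) against 14.8 in library 1 and at 27.6 (18.0 to 40.5) against 34.3 in library 2, the latter not detectable at this depth. These picked cells were deeper, with a median of 5082.5 UMIs against 3828 in library 2, and the part of depth was not tested. The pick also pooled B cell-like clusters that differed in both genes. In library 2 Hspa1a and Jun were at 690 and 1152 CPM in the largest of these clusters. In another they were at 229 and 286 CPM. No contrast was read within a cluster, and the part of the mix of clusters was not tested.

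The same pick was made in stromal cells. In osteoblast-like cells Fos was at 3631 CPM in the 25 Hspa1a-rich cells of library 1 and at 677 in the 43 with none, and at 3141 and 473 in library 2. Egr1 was at 1188 against 263 CPM and at 937 against 175. In chondrocyte-like cells Jun was at 3914 against 295 CPM in library 1, with 9 and 10 cells, and at 1912 against 920 in library 2, with 41 and 48 cells. As the cells were chosen by a member, these values are a description with no test. The chosen osteoblast-like cells were deeper, with medians of 34780 and 24332 UMIs against 27062 and 12384 in cells with none. In chondrocyte-like cells the medians were 42501 and 32360 UMIs against 31492 and 27504. The osteoblast-like class joins clusters of unlike depth, with medians of 27410 and 7278 UMIs. The parts of depth and of the mix of clusters were not tested.

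**Figure D5:**
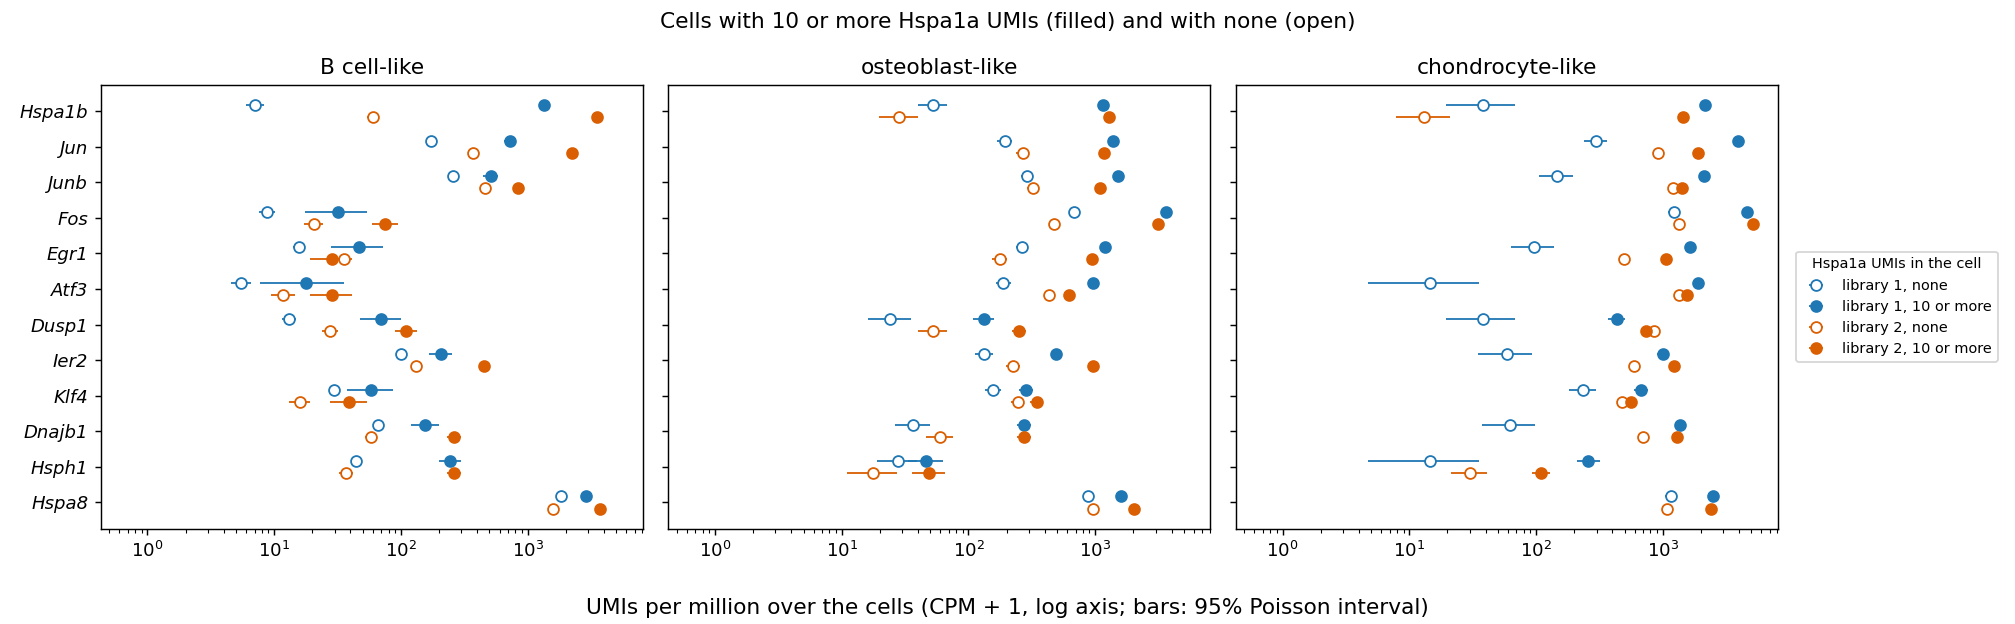
Levels in cells with at least 10 Hspa1a UMIs (filled) and in cells with none (open), in CPM plus 1 on a log axis with 95% Poisson intervals as bars, for the B cell-like, osteoblast-like and chondrocyte-like classes of each library. Jun stands higher in the filled points of every class, while Egr1 in B cell-like cells is at 45.4 against 14.8 CPM in library 1 and at 27.6 against 34.3 CPM in library 2.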

How the data were processed

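Both libraries were made with the Chromium 3' v3.1 kit. The deposited matrices hold raw UMI counts per gene and barcode, made by the authors with Cell Ranger 6.1.2 against mm10 per the submitters' processing notes. The study's methods name only a human genome, and the annotation release is not given in the sources used here. No normalization had been applied, although barcodes below the study's cell filter were still present.

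Cells passing 500 genes, 500 UMIs and at most 10% mitochondrial UMIs were integrated by canonical correlation in Seurat 5.3.0 (R 4.3.3; 3000 variable genes leaving out 91 genes, the members and those of 7 lists, 15 components, resolution 0.8), and stromal cells were clustered again. Names came from marker lists: at least 3 markers with a log2 fold of 1 in 20% of cells, plus a marker among the 10 leading genes or most of the list, a naming rule set after the clusters were seen. Doublets were left in, since Scrublet (scanpy 1.11.5) called 124 cells in library 1 and only 1 in library 2, where it had not worked. UMIs were summed per class and library and tested with edgeR 4.0.16 (TMM, filterByExpr, Benjamini-Hochberg adjustment over all genes, threshold 0.05, n = 2 libraries), after a check on simulated counts. Classes were clustered from the same cells that were tested. The members and lists were chosen with earlier results of these data known. One of the lists is not reported here. Genes named from the others were among the 4 with the largest differences past the threshold in a comparison, leaving out those near 0 in a group. Sums with the same number come from the same library and so are paired: their deviations correlated by 0.0263 to 0.49 over 55 class pairs (median 0.14, over 0.1 in 39). Intervals are exact Poisson, binomial or ratio intervals at 95% and cover counting error only. Promoter windows came from RefSeq on GRCm38.p6 and gene positions from a GENCODE annotation of GRCm38. Alternatives covered scaling, test, filter, library block, clustering, mitochondrial limit, doublets, integration and each library alone.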

Additional observations from a re-analysis of the deposited data

Results flagged for a closer look

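The members were also counted in the barcodes that the cell filter removed, which no comparison used. In barcodes with fewer than 500 genes they summed to 122.81 CPM in library 1 (3436 barcodes) and 211.204 CPM in library 2 (689 barcodes), against 1137 and 4545 CPM in the kept cells, and 13.4% and 21.8% of these barcodes held a UMI of any member. In barcodes with at least 500 genes and more than 10% mitochondrial UMIs they summed to 1518.95 CPM (220 barcodes) in library 1 and 3901.39 CPM (77 barcodes) in library 2. That is above the level of the kept cells in library 1 and below it in library 2. The mix of cell classes in these barcodes was not examined. The reporters of the feature list, which no comparison used, gave EGFP at 222.37 CPM over the kept cells of library 2, with 0 UMIs in library 1, and tdTomato at 16.098 CPM in library 1 and 150.49 CPM in library 2. Of the 6837 EGFP UMIs 875 lay in chondrocyte-like, 986 in osteoblast-like and 31 in P-SSC-like cells. All these values lie above the limit that a count of 0 allows. No outlier could be sought, since there are only 2 libraries.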

How the results depend on the processing

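Of 548 alternative values of the members' log2 differences, 494 kept their side of the threshold, 28 passed it newly and 24 fell short of it. A value called in neither fit counts among the 494 even where its direction changed. The 2 that reversed with a call in either fit were Junb (0.013) and Ier2 (0.18) in stromal against blood cells without the skeletal muscle-like class. The count of members called was within 1.5 times the reported count in each other setting, and fell to 3 for mature neutrophil-like against neutrophil precursor-like cells when the libraries were merged without integration. The cause was not tested. DESeq2-type size factors shifted the median of all genes from -0.17 to 0.10 in stromal against blood, from 0 to 0.13 in P-SSC-like against chondrocyte-like and from -0.44 to -0.0034 in the neutrophil comparison. With the library as a replicate block, 6, 8, 9, 8 and 6 members were called in stromal against blood, P-SSC-like against osteoblast-like, P-SSC-like against chondrocyte-like, monocyte/macrophage-like against B cell-like and the neutrophil comparison, and the block changed no other call than those given beside the results. Either library alone allows no test, and no called value changed sign. The Lepr+ stromal-like class had 9, 5 and 5 cells in library 2, too few to test, at resolution 1.2, at a mitochondrial limit of 5% and without integration, and no T/NK cell-like class was named at resolution 0.4 or without integration. The 24 lost calls were 6 of Ier2 in stromal against blood and the 18 given beside their results. Ier2 in stromal against blood lost its call under DESeq2-type size factors, DESeq2, no low-count filter, resolution 1.2, the 5% limit and removal of called doublets. Low counts limit Hspa1a in mature neutrophil-like cells, above all in library 2, and the members in the 19 P-SSC-like cells of library 1.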
